A study of Mus musculus with 16 samples.

Results

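The antioxidant enzyme genes Sod1, Sod2, Cat, Gpx1, Gpx4, Prdx1, Txn1, Txnrd1, Gclc and Gclm were followed across the RNAseq libraries of a study of AIM2, a cytosolic sensor of double-stranded DNA, in mouse CD4+ T cells. The members were chosen by gene symbol, and all 10 were found among the 53090 genes of each deposited table. The study asked how the loss of AIM2 alters the transcriptome of naive cells and of cells on the way to a regulatory phenotype, with 16 libraries in 4 groups of 4. WT Tn and Aim2-/- Tn were splenic naive CD4+ T cells, not cultured, from C57BL/6 mice and from Aim2-/- mice on that background, which are deficient in AIM2 in all tissues and not in T cells alone. WT Treg and Aim2-/- Treg were CD4+ T cells of the same genotypes after 2 days (48 h) in culture with antibodies to CD3 and CD28, recombinant human TGFβ and recombinant mouse IL-2. Mice were matched for sex and age, and the age itself is not given in the sources used here. No source used here says whether the libraries of a group came from separate mice, so the p-values measure the spread between these libraries, which may be technical. Stimulation, cytokines and time in culture were all changed at once between Tn and Treg, so their contributions cannot be told apart.

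Superoxide made by mitochondria or NADPH oxidases is converted to hydrogen peroxide by superoxide dismutases, and the peroxide is then removed by catalase, glutathione peroxidases and peroxiredoxins. Glutathione peroxidases draw electrons from glutathione and peroxiredoxins draw them from thioredoxin, and both pools are recharged with NADPH. The transcription factor NRF2 (gene Nfe2l2), held in check by KEAP1, activates many of these genes through the antioxidant response element, and T cell receptor signaling raises the production of reactive oxygen species in T cells.

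The 10 genes lie on 7 chromosomes in GRCm38, the build to which the authors mapped the reads. Sod1, the copper and zinc superoxide dismutase of the cytosol, spans chr16:90220754-90226329, and Sod2, the manganese enzyme of mitochondria, spans chr17:13006846-13040063, both on the plus strand. Cat, the catalase of peroxisomes, spans chr2:103453849-103485160 on the minus strand. Gpx1, the main cytosolic glutathione peroxidase, lies at chr9:108338903-108340343 and Gpx4, which reduces lipid peroxides in membranes, at chr10:80047166-80056439, both on the plus strand. Prdx1, a peroxiredoxin, spans chr4:116685544-116700822 on the plus strand, and Txn1, the cytosolic thioredoxin that serves it, spans chr4:57943373-57956411 on the minus strand. Txnrd1, the selenoenzyme that reduces thioredoxin with NADPH, lies at chr10:82833951-82897712 on the plus strand. Gclc, the catalytic subunit of glutamate-cysteine ligase that begins glutathione synthesis, lies at chr9:77754535-77794485, and Gclm, its modifier subunit, at chr3:122245557-122270732, both on the plus strand.

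Promoter windows from 250 bases before to 50 bases after the start, taken from RefSeq (GRCm38.p6), covered 9 of the 10 members, with 14 windows in all, and Gclc was not matched. The core of the antioxidant response element, TGACNNNGC, was searched on both strands because it is the sequence through which NRF2 acts on several of these genes. It was found in 1 window of each of 4 members, Gclm, Prdx1, Txnrd1 and Sod1, that is in 4 of 14 windows (28.6%), against 12.4% of the 32851 windows of all genes. The 4 matches are shown in 61 bases of the plus strand each, with the motif in capitals. All 4 read as TGACNNNGC on the opposite strand, at positions -134 (Gclm), -133 (Prdx1), -92 (Txnrd1) and -56 (Sod1) from the transcript start of the window.
Gclm, chr3:122245397-122245457: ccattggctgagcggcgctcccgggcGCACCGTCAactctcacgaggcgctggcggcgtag
Prdx1, chr4:116685440-116685500: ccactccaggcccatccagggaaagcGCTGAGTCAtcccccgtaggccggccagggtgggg
Txnrd1, chr10:82859088-82859148: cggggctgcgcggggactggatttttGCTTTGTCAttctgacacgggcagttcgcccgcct
Sod1, chr16:90220680-90220740: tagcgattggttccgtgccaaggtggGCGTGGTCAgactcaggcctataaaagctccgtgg
The AP-1 site TGANTCA was found in the Prdx1 window only, at -237 and at -131, and the second of these overlaps the motif shown. That letter string occurred in 7.81% of all windows. The E-box CACGTG was in none of the 14 member windows and in 7.15% of all windows. A match is a description of letters and not of a bound site.

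Each library held between 22516424 and 34533316 counts, with a median of 28163328, and the members were covered by 348 to 15782 counts per library. Aim2 stood at 32.3 to 37.9 CPM (counts scaled to the size of the library) in WT Tn and 35.7 to 43.3 CPM in WT Treg, and at 6.61 to 9.26 CPM in Aim2-/- Tn and 7.17 to 10.8 CPM in Aim2-/- Treg. It was lower in all Aim2-/- libraries than in any WT library, with log2 fold changes of -2.24 ± 0.13 (SE) in Tn and -2.12 ± 0.13 in Treg (edgeR, Benjamini-Hochberg adjusted p = 1.05e-05 and 0.00013). The 8 CD4 T cell identity genes summed to 4373 to 5223 CPM in Tn and 2149 to 2370 CPM in Treg, the naive markers to 4485 to 6191 CPM in Tn and 667 to 1083 CPM in Treg, and the activation and Treg markers to 138 to 256 CPM in Tn and 3625 to 4418 CPM in Treg. The WT Tn libraries fell into pairs: the chi-square of counts over its degrees of freedom was 13.5 between replicates 1 and 2 and 11.5 between replicates 3 and 4, and 73.3 to 94.2 across these pairs. Where the pairs of replicates differed in a call, or in a called change of a member by over 1.5 times, the values of both pairs are given beside the pooled value.

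Per kb of merged exons, Gpx1 had the highest level of the members in WT Tn, at 68.3 ± 10.6 CPM per kb (SD, n = 4). Gpx4 (53.1 ± 2.22), Sod1 (50.4 ± 17.8), Prdx1 (44.9 ± 5.27) and Txn1 (41.2 ± 0.79 CPM per kb) followed, and the libraries of each of these overlapped those of the next except for Gpx1 and Gpx4, whose ranges of 58.6 to 78.6 and 51.3 to 56.2 CPM per kb were apart. Cat (26.6 ± 5.62), Gclc (14.96 ± 0.23), Txnrd1 (9.71 ± 0.79), Sod2 (3.72 ± 0.12) and Gclm (2.63 ± 0.39 CPM per kb) formed the lower part of the order, with no overlap between neighbors. In WT Treg the order per kb was led by Txn1 at 364 ± 19.6, then Gpx1 at 180 ± 5.72 and Prdx1 at 153 ± 4.18 CPM per kb, again without overlap, and Txnrd1 reached 42.2 ± 2.70 CPM per kb. Gclm (6.07 ± 0.19) and Sod2 (6.81 ± 0.27 CPM per kb) were lowest. The order depended on the length used, most of all for Sod1, whose merged exons are much longer than its principal transcript. Per kb of that transcript Sod1 was first in both WT groups, at 312 CPM per kb in Tn and 367 CPM per kb in Treg. Its WT Treg libraries (349 to 383) overlapped those of Txn1 (340 to 384 CPM per kb), and Txn1 was first in Aim2-/- Treg. Per kb of principal transcript in WT Tn, Gpx4 (92.2 to 101) and Gpx1 (78.7 to 106 CPM per kb) overlapped. Txnrd1 (17.6 to 21.4) was then above Gclc (16.1 to 16.7 CPM per kb) in WT Tn. Part of the reads of Sod1, Gpx4 and Prdx1 was shared with other genes in all 16 libraries, since their estimated counts were not whole numbers, so the levels of these 3 genes carry an uncertainty that the replicate spread does not show.

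**Figure D1:**
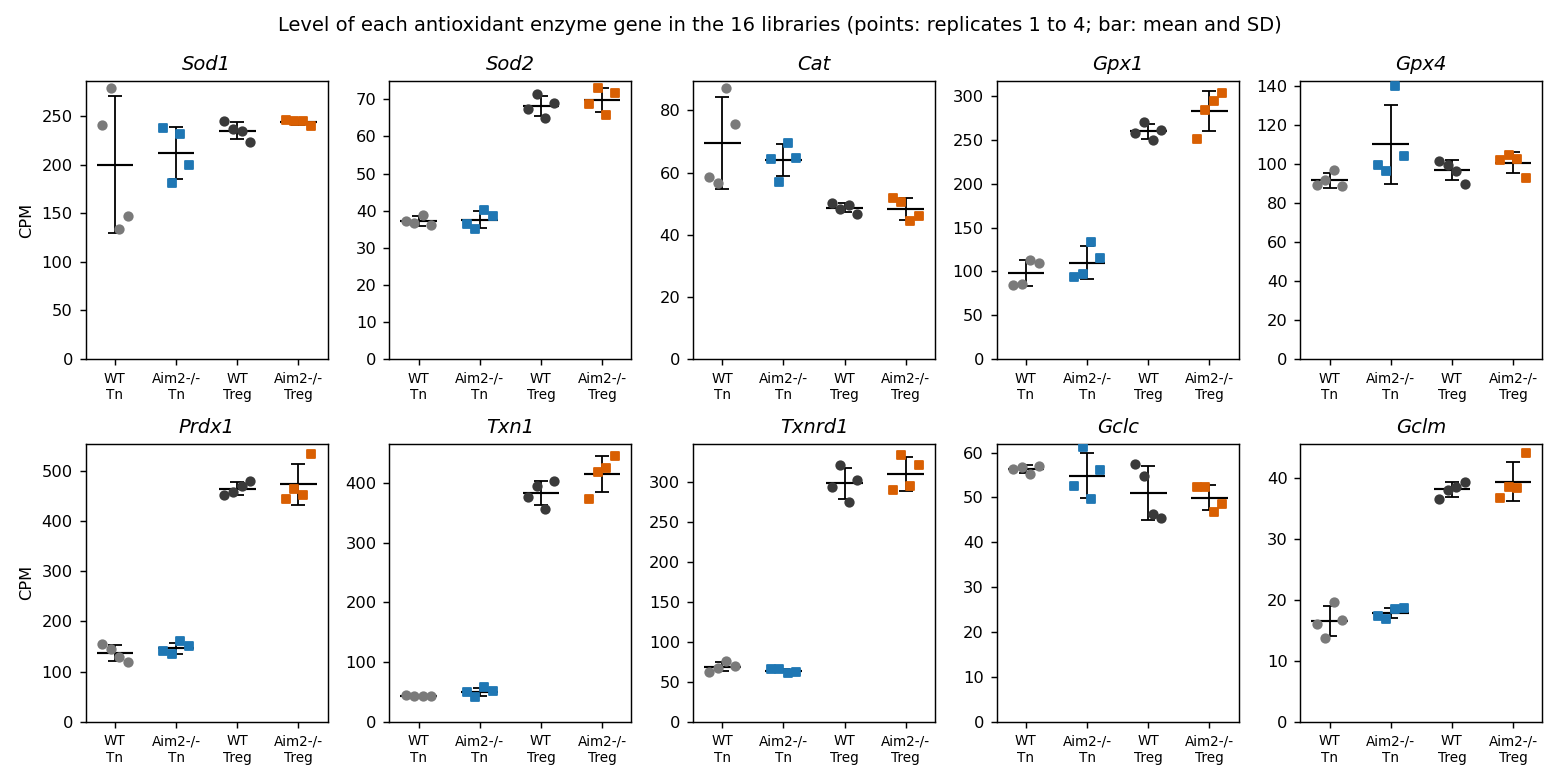
CPM of each antioxidant enzyme gene (vertical axes from 0, linear) in the 4 groups, 1 point a library, with the mean and SD of 4 libraries. Txn1, Txnrd1, Prdx1, Gpx1, Gclm and Sod2 are higher in all Treg than in all Tn libraries, Cat is lower, and the WT Tn libraries of Sod1 spread from 134 to 279 CPM.

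With Treg culture, 7 of the 10 members passed the test in each genotype, 6 higher and 1 lower. This was the share found among all genes, since 76.9% of 13675 genes tested in WT and 79.3% of 13713 in Aim2-/- were called (37.7% and 39.1% of genes higher, 39.2% and 40.2% lower). The groups did not overlap for 7 members in WT and 8 in Aim2-/-, against 72.9% and 74.8% of all genes. The median log2 fold change over the members was 1.01 in both genotypes, and -0.05 in WT and -0.04 in Aim2-/- over all genes tested. Summed over the 10 genes, the members took 762 to 876 CPM in WT Tn, 787 to 963 CPM in Aim2-/- Tn, 1883 to 1991 CPM in WT Treg and 1915 to 2147 CPM in Aim2-/- Treg. In bulk RNA a change in the share of cells that express a gene and a change in RNA per cell cannot be told apart.

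The thioredoxin arm showed the 3 largest rises among the members. Txn1 was at 44.3, 43.2, 43.3 and 42.3 CPM in the WT Tn libraries and at 49.8, 42.1, 57.8 and 51.0 CPM in Aim2-/- Tn. In Treg it stood at 377, 394, 357 and 404 CPM in WT and at 373, 418, 425 and 445 CPM in Aim2-/-. Every Treg library was above every Tn library by a wide gap. The fold change was 8.65 in WT (log2 3.11 ± 0.07 SE) and 8.21 in Aim2-/- (log2 3.04 ± 0.11), with adjusted p of 6.02e-10 and 5.90e-10 (edgeR, Benjamini-Hochberg), and it lay at the 94.0 percentile of all genes in each genotype.

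Txnrd1 read 62.3, 67.2, 75.7 and 69.97 CPM in WT Tn and 65.7, 66.0, 61.6 and 62.8 CPM in Aim2-/- Tn. In Treg it lay at 295, 322, 275 and 303 CPM in WT and at 290, 335, 295 and 321 CPM in Aim2-/-. Tn and Treg libraries were far apart, and the genotypes overlapped within each. The reductase rose 4.25-fold in WT (log2 2.09 ± 0.08) and 4.81-fold in Aim2-/- (log2 2.27 ± 0.08), with adjusted p of 1.71e-08 and 5.16e-10 (edgeR). Prdx1, which is recharged by thioredoxin, was at 154, 146, 128 and 119 CPM in WT Tn and at 140, 135, 161 and 150 CPM in Aim2-/- Tn. In Treg it was at 451, 457, 470 and 479 CPM in WT and at 443, 465, 451 and 533 CPM in Aim2-/-. The groups did not overlap with culture in either genotype, and the rise was 3.32-fold in WT (log2 1.73 ± 0.09) and 3.20-fold in Aim2-/- (log2 1.68 ± 0.09), with adjusted p of 9.98e-08 and 1.35e-08 (edgeR).

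In the glutathione arm, the members with a given role did not all move alike. Gpx1 was at 84.4, 86.0, 113 and 110 CPM in WT Tn and at 94.2, 96.7, 134 and 115 CPM in Aim2-/- Tn. The Treg libraries read 258, 270, 251 and 261 CPM in WT and at 251, 285, 294 and 304 CPM in Aim2-/-. All Treg libraries exceeded all Tn libraries, and replicates 3 and 4 were the higher ones of both Tn groups. Gpx1 rose 2.59-fold in WT (log2 1.37 ± 0.11) and 2.56-fold in Aim2-/- (log2 1.35 ± 0.12), with adjusted p of 1.52e-06 and 7.54e-07 (edgeR).

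Gpx4, the other glutathione peroxidase of the set, did not pass the test. It was at 89.1, 91.8, 96.8 and 88.4 CPM in WT Tn and at 99.6, 96.2, 140 and 104 CPM in Aim2-/- Tn. Treg libraries were at 101.5, 99.3, 96.2 and 89.6 CPM in WT and at 102, 105, 103 and 92.7 CPM in Aim2-/-. All 4 groups overlapped, and replicate 3 of Aim2-/- Tn stood above the other 15 libraries. The log2 fold change with culture was 0.05 in WT (95% interval -0.10 to 0.20, adjusted p = 0.54 in edgeR) and -0.14 in Aim2-/- (-0.39 to 0.11, adjusted p = 0.28). These values moved with the processing: once GC content and length were corrected for they were 0.19 (adjusted p = 0.024) and 0.20 (adjusted p = 0.065). In WT they were 0.16 among replicates 1 and 2 alone (adjusted p = 0.036 in edgeR) and -0.035 among replicates 3 and 4 alone (adjusted p = 0.73). In Aim2-/- they were 0.046 (adjusted p = 0.64) and -0.35 (adjusted p = 0.039). Replicates 1 and 2 were thus called higher in WT only, and replicates 3 and 4 lower in Aim2-/- only.

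Gclc and Gclm make up 1 enzyme and changed unequally. Gclc was at 56.3, 56.8, 55.1 and 57.1 CPM in WT Tn and at 52.7, 61.2, 49.7 and 56.0 CPM in Aim2-/- Tn. After culture it was at 57.4, 54.8, 46.3 and 45.4 CPM in WT and at 52.3, 52.4, 46.7 and 48.5 CPM in Aim2-/-. Tn and Treg overlapped in both genotypes, and replicates 3 and 4 were the lower ones in both Treg groups. The log2 fold change was -0.18 in WT (-0.38 to 0.03, adjusted p = 0.11 in edgeR) and -0.15 in Aim2-/- (-0.34 to 0.05, adjusted p = 0.15). With the GC and length correction both passed the test, at -0.37 and -0.31 (adjusted p = 0.0034 and 0.0053). In WT the value was -0.0024 among replicates 1 and 2 alone (adjusted p = 0.97) and -0.33 among replicates 3 and 4 alone (adjusted p = 0.0087), and in Aim2-/- -0.16 and -0.18 (adjusted p = 0.22 and 0.16).

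The modifier subunit Gclm was the member with the fewest counts. It was at 16.03, 13.8, 19.6 and 16.8 CPM in WT Tn and at 17.3, 16.9, 18.6 and 18.7 CPM in Aim2-/- Tn. The cultured cells had 36.6, 38.1, 38.5 and 39.5 CPM in WT and at 36.8, 38.5, 38.4 and 44.2 CPM in Aim2-/-. Its Tn and Treg libraries were apart in both genotypes. Gclm rose 2.26-fold in WT (log2 1.18 ± 0.11) and 2.19-fold in Aim2-/- (log2 1.13 ± 0.09), with adjusted p of 5.55e-06 and 3.47e-07 (edgeR).

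Of the superoxide dismutases, the mitochondrial enzyme rose and the cytosolic one was not called. Sod2 was at 37.3, 36.6, 38.9 and 36.1 CPM in WT Tn and at 36.3, 35.03, 40.3 and 38.7 CPM in Aim2-/- Tn. In Treg it was at 67.3, 71.5, 65.0 and 68.9 CPM in WT and at 68.7, 73.0, 65.9 and 71.8 CPM in Aim2-/-. The libraries of each group were within a few CPM of each other, and Tn and Treg were apart. Sod2 rose 1.79-fold in WT (log2 0.84 ± 0.07) and 1.85-fold in Aim2-/- (log2 0.88 ± 0.08), with adjusted p of 1.82e-06 and 9.00e-07 (edgeR).

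Sod1 was at 240.5, 279, 134 and 147 CPM in WT Tn and at 238, 181, 231 and 200 CPM in Aim2-/- Tn. The Treg values were 245, 236, 235 and 223 CPM in WT and at 246, 245, 245 and 240.2 CPM in Aim2-/-. Replicates 3 and 4 of WT Tn were the lowest of all 16 libraries, and replicates 1 and 2 of that group were within or above the range of Treg. The coefficient of variation was 35.3% in WT Tn, 12.6% in Aim2-/- Tn, 3.84% in WT Treg and 1.02% in Aim2-/- Treg. The log2 fold change with culture was 0.20 in WT (-0.29 to 0.69, adjusted p = 0.42 in edgeR) and 0.19 in Aim2-/- (-0.01 to 0.39, adjusted p = 0.079). In WT it was -0.10 among replicates 1 and 2 alone (adjusted p = 0.30) and 0.66 among replicates 3 and 4 alone (adjusted p = 0.00031), and in Aim2-/- the libraries did not overlap and DESeq2 gave an adjusted p of 0.043.

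Cat was the member that fell. It was at 58.5, 56.5, 87.3 and 75.7 CPM in WT Tn and at 64.5, 57.1, 69.6 and 64.8 CPM in Aim2-/- Tn. After culture it stood at 50.2, 48.4, 49.7 and 46.8 CPM in WT and at 52.0, 50.6, 44.5 and 46.1 CPM in Aim2-/-. Every Treg library was below every Tn library of its genotype, and replicates 3 and 4 of WT Tn were the highest of all 16. The log2 fold change was -0.54 ± 0.13 in WT and -0.42 ± 0.09 in Aim2-/- (adjusted p = 0.0043 and 0.0010 in edgeR), that is 0.69 and 0.75 times the Tn level. It was -0.21 among replicates 1 and 2 alone and -0.80 among replicates 3 and 4 alone in WT (adjusted p = 0.018 and 0.00025), and -0.28 and -0.60 in Aim2-/- (adjusted p = 0.037 and 0.00030). Erythroid cells are rich in catalase, and the 9 erythroid markers matched summed to 1.58 to 8.30 CPM in Tn and 0.18 to 0.33 CPM in Treg. The part of these transcripts in the fall of Cat was not tested.

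**Figure D2:**
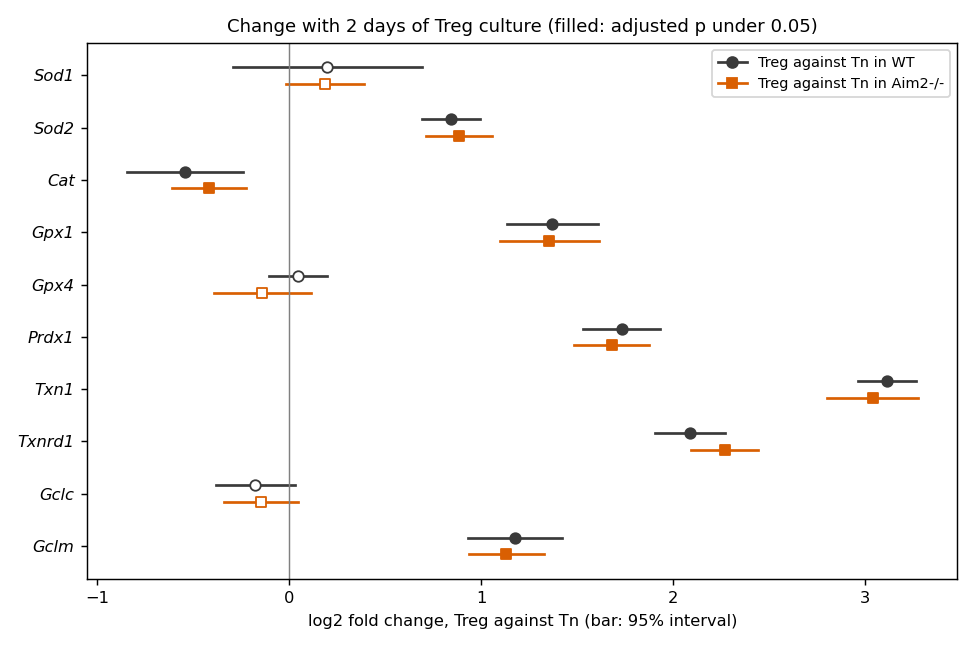
Log2 fold change of each member between Treg and Tn (horizontal axis) with its 95% interval, for WT (circles) and Aim2-/- (squares), filled where the adjusted p was under 0.05. The values run from -0.54 for Cat to 3.11 for Txn1 in WT, and the open symbols are Sod1, Gpx4 and Gclc in both genotypes.

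Between genotypes, none of the 10 members passed the test in Tn, where 0.231% of 13441 genes did (31 genes), or in Treg, where 0.219% of 13221 genes did (29 genes). DESeq2 called none of them either. Under an unadjusted p of 0.05 in edgeR stood 2 members in Tn (10.3% of all genes) and 0 in Treg (2.31% of all genes). The libraries of WT and Aim2-/- overlapped for all 10 members in both cell states, while 6.95% of all genes in Tn and 2.26% in Treg did not overlap. The median log2 fold change of the members was 0.10 in Tn and 0.05 in Treg, beside 0.01 and 0.00044 over all genes tested.

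The members with an unadjusted p under 0.05 in Tn were Gpx4 and Txn1. Gpx4 had a log2 fold change of 0.27 (0.01 to 0.53, unadjusted p = 0.042 and adjusted p = 0.47 in edgeR), and Txn1 of 0.22 (0.0008 to 0.44, unadjusted p = 0.049 and adjusted p = 0.48). With the GC and length correction these values were 0.087 and 0.083 (unadjusted p = 0.41 and 0.38). In both genes replicate 3 of Aim2-/- Tn was the highest Tn library, at 140 CPM for Gpx4 and 57.8 CPM for Txn1, while replicate 2 of Aim2-/- Tn lay within the WT range for Gpx4 and just under it for Txn1. Erythroid marker sums were also higher in Aim2-/- Tn (5.81 to 8.30 CPM) than in WT Tn (1.58 to 4.35 CPM), and myeloid marker sums were 17.0 to 21.4 CPM against 14.6 to 22.9 CPM. Their part in these values was not tested.

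In Tn the 95% intervals of the other members ran from -0.43 to 0.61 on the log2 scale, and both of these bounds belong to Sod1. The estimate for Sod1 was 0.09 (adjusted p = 0.91 in edgeR), but it was -0.30 among replicates 1 and 2 alone (adjusted p = 0.37) and 0.60 among replicates 3 and 4 alone (adjusted p = 0.022). For Gpx1 (0.17), Prdx1 (0.11), Gclm (0.12) and Sod2 (0.02) the estimates were above 0, and for Cat (-0.11), Txnrd1 (-0.10) and Gclc (-0.03) below 0, all with adjusted p of 0.69 or more. The pairs of replicates differed in sign for Prdx1 (-0.11 and 0.32) and Cat (0.094 and -0.29), with no adjusted p under 0.05 in either pair.

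After Treg culture the intervals were narrower. They ran from -0.24, for Gclc, to 0.26, for Gpx1, so that differences beyond about 1.19-fold up or 0.85-fold down lay outside the 95% interval of each member. Gpx1 had the largest estimate at 0.12 (-0.02 to 0.26), followed by Txn1 at 0.11 (-0.03 to 0.25), and the adjusted p was 0.999 for all 10 members in edgeR. The estimates of Sod1 (0.05), Gpx4 (0.05), Txnrd1 (0.05), Gclm (0.04), Sod2 (0.03), Prdx1 (0.02), Cat (-0.02) and Gclc (-0.03) were closer to 0.

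**Figure D3:**
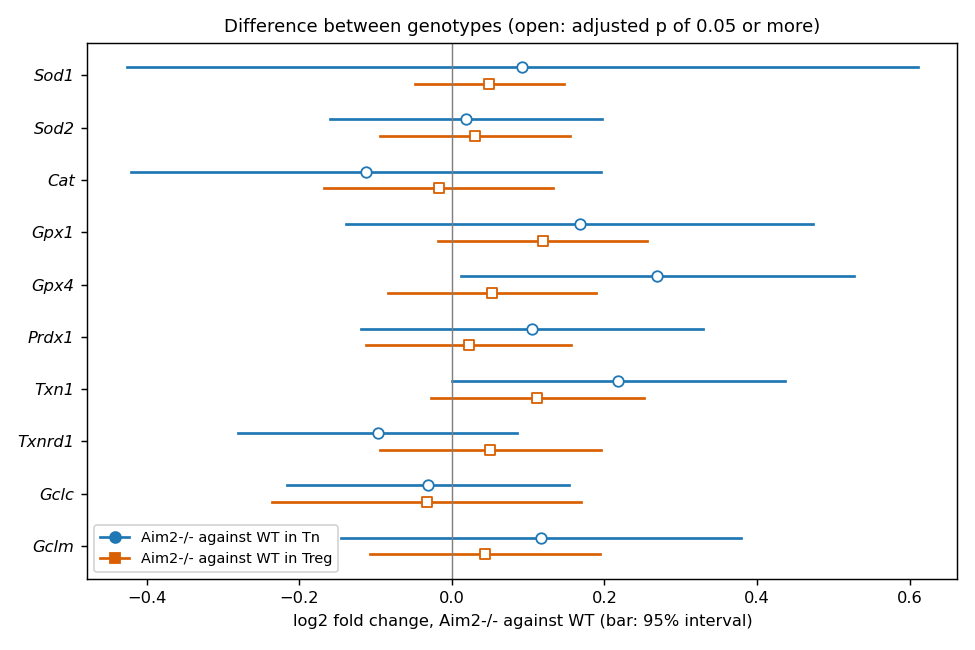
Log2 fold change of each member between Aim2-/- and WT (horizontal axis) with its 95% interval, in Tn (circles) and Treg (squares), all open since no adjusted p was under 0.05. The Tn interval of Sod1, from -0.43 to 0.61, is the widest, and the Treg intervals lie between -0.24 and 0.26.

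The difference of the genotype effect between Tn and Treg was tested as an interaction over all 16 libraries. It was called for none of the 10 members and for 0.0205% of 14669 genes (3 genes) by edgeR, and no member had an unadjusted p under 0.05 (3.49% of all genes did). The estimates ran from -0.21 for Gpx4 (-0.50 to 0.08) to 0.16 for Txnrd1 (-0.06 to 0.38). A difference between WT and Aim2-/- in the change with culture was thus not called for any member.

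Related enzymes and subunits were compared in pairs within each library, where the scaling between libraries has no effect. The log2 ratio of Gclc to Gclm counts was 1.81, 2.04, 1.49 and 1.77 in WT Tn and 0.65, 0.52, 0.27 and 0.20 in WT Treg. The Aim2-/- libraries had values of 1.60, 1.85, 1.42 and 1.58 before culture and of 0.51, 0.44, 0.28 and 0.14 after it. Every Treg library had a lower ratio than any Tn library, in both genotypes. These ratios are not scaled to gene length, so they show unequal change and not which subunit was the more abundant. The difference was -1.37 in WT and -1.27 in Aim2-/-.

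The log2 ratio of Gpx4 to Gpx1 was between -0.31 and 0.09 in both Tn groups and between -1.71 and -1.30 in both Treg groups. The Treg ratios were all below the Tn ratios. Txnrd1 to Txn1 went from 0.49 to 0.81 in WT Tn to -0.41 to -0.29 in WT Treg, and from 0.09 to 0.65 to -0.53 to -0.32 in Aim2-/-. Here too no Treg library reached the range of Tn. These ratios fell by 1.34 and 1.49 (Gpx4/Gpx1) and by 1.02 and 0.78 (Txnrd1/Txn1) in WT and Aim2-/-. Each of the 6 differences had an exact permutation p of 0.0286, the smallest that 70 arrangements can give. The adjusted p was 0.0653 over the 16 ratio tests, so that no ratio passed the threshold. With this smallest p, a ratio could pass only if more of the 16 tests had reached it, so the lack of a call says little.

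Sod2 to Sod1 was -2.69, -2.93, -1.78 and -2.03 in WT Tn and between -1.87 and -1.70 in WT Treg. In Aim2-/- it was between -2.71 and -2.37 in Tn and between -1.89 and -1.74 in Treg. The WT groups overlapped through replicate 3 of WT Tn, and the Aim2-/- groups did not overlap. The difference with culture was 0.57 in WT (exact permutation p = 0.0857, adjusted p = 0.152) and 0.69 in Aim2-/- (exact permutation p = 0.0286, adjusted p = 0.0653). Between genotypes the largest difference was that of Txnrd1/Txn1 in Tn, at -0.30 (exact permutation p = 0.0857, adjusted p = 0.152), and it was -0.04 among replicates 1 and 2 alone and -0.57 among replicates 3 and 4 alone.

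**Figure D4:**
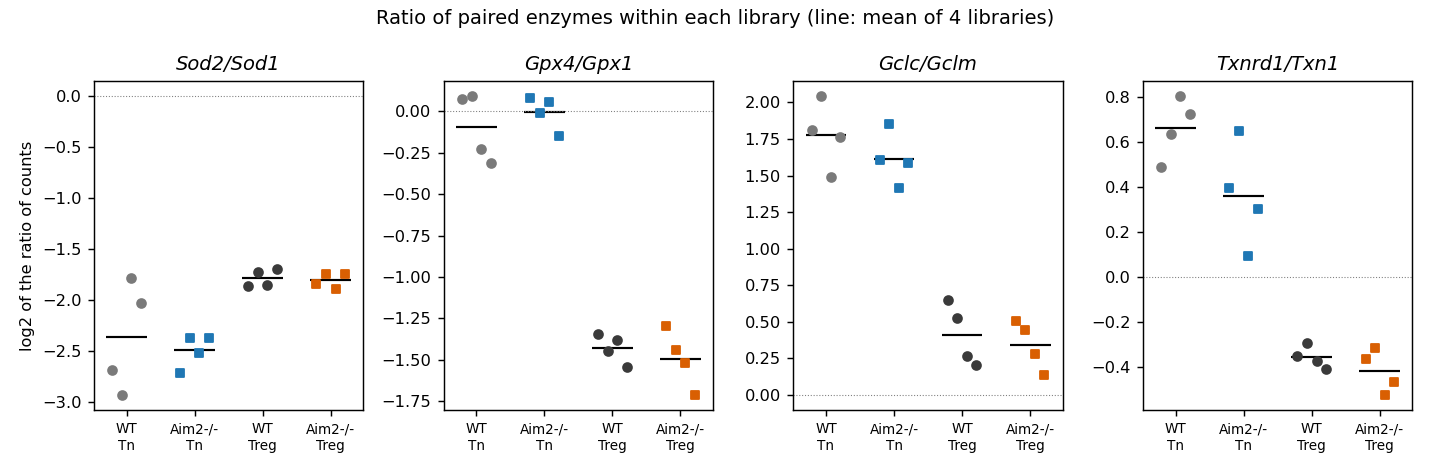
Log2 ratio of the counts of paired enzymes within each library (vertical axes, linear in log2 units), 1 point a library, with the group mean as a line. Gpx4/Gpx1, Gclc/Gclm and Txnrd1/Txn1 are lower in all Treg than in all Tn libraries, and Sod2/Sod1 overlaps between WT Tn and WT Treg.

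The other genes of these systems were counted over lists of related genes. Their counts stand beside the shares of all genes given above, 37.7% called higher and 39.2% called lower in WT and 39.1% and 40.2% in Aim2-/-. Of 16 other thioredoxin and peroxiredoxin genes tested, 9 rose and 4 fell with culture in WT and 10 and 4 in Aim2-/-. The median was 0.78 on the log2 scale in WT and 0.81 in Aim2-/-. Among the peroxiredoxins that act beside Prdx1, Prdx2 rose in WT from 66.3 ± 2.90 to 188 ± 6.41 CPM (SD, n = 4). The endoplasmic reticulum enzyme Prdx4 rose in WT from 7.85 ± 1.17 to 53.1 ± 6.67 CPM, and both were named after their values were seen. Txnip, the inhibitor that binds thioredoxin, fell from 1357 to 1554 CPM in WT Tn to 58.5 to 86.6 CPM in WT Treg (log2 -4.29, adjusted p = 5.40e-09 in edgeR) and in Aim2-/- it fell by 4.40 on the log2 scale. Srxn1, the sulfiredoxin that repairs overoxidized peroxiredoxins, was at 0 to 0.31 CPM in WT Tn and 0.74 to 1.78 CPM in WT Treg, and the methionine sulfoxide reductase Msrb3 at 0 to 0.13 and 1.51 to 4.19 CPM, both called higher but near the level of 3 counts in Tn.

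Of 20 other glutathione genes tested, 10 rose and 7 fell in WT, with a median of 0.43. In Aim2-/- 10 rose and 8 fell, with a median of 0.15. Glutathione reductase, Gsr, rose from 23.2 ± 0.27 to 46.1 ± 4.87 CPM in WT and was named after its values were seen. Gsto1, an omega class glutathione transferase, rose from 7.56 ± 0.86 to 33.4 ± 7.71 CPM (log2 2.12), while Ggt5, a gamma-glutamyltransferase, fell from 54.9 ± 5.27 to 0.91 ± 0.40 CPM (log2 -5.92, adjusted p = 2.83e-08 in edgeR). Chac1, which degrades glutathione, was called higher, at 0 to 0.07 CPM in WT Tn and at 0.40, 1.22, 2.17 and 6.71 CPM in the WT Treg libraries. Of 3 partners of the superoxide dismutases 1 rose, the copper chaperone of cytochrome c oxidase Cox17 (log2 2.18), and 1 fell, Ccs, which loads copper onto SOD1 (log2 -0.29, adjusted p = 0.040).

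Of 11 NADPH supply genes, 7 rose and 1 fell in WT, with a median of 0.42, where 37.7% of all genes were called higher. In Aim2-/- 6 rose and 1 fell, with a median of 0.81, where 39.1% of all genes were called higher. Tkt, the transketolase of the pentose phosphate pathway, went from 178 to 201 CPM in WT Tn to 599 to 715 CPM in WT Treg (log2 1.81), the malic enzyme Me2 rose by 1.71 and G6pdx, the entry enzyme of that pathway, by 1.40 on the log2 scale. Of 8 genes for selenocysteine synthesis and insertion, which TXNRD1, GPX1 and GPX4 require, 4 rose and 2 fell in WT (median 0.37). In Aim2-/- 5 rose and 2 fell (median 0.38). The selenophosphate synthetases Sephs2 (log2 1.62) and Sephs1 (2.82-fold) rose in WT, and Pstk, which phosphorylates the seryl-tRNA on the way to selenocysteine, fell (log2 -0.69). Among the NADPH oxidase subunits, Ncf1, the p47phox subunit, rose from 2.31 to 3.12 CPM in WT Tn to 96.6 to 106 CPM in WT Treg (log2 5.20), and Cyba, the p22phox subunit, fell by 0.20 on the log2 scale.

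Of 16 NRF2 regulators and targets, 10 fell and 4 rose in each genotype, where 39.2% (WT) and 40.2% (Aim2-/-) of all genes were called lower. The median was -0.81 in WT and -0.74 in Aim2-/-. The list mixes activators, inhibitors and targets, so these counts give no direction for the pathway. Nfe2l2 itself was at 51.6 to 81.8 CPM in WT Tn and 31.5 to 38.3 CPM in WT Treg, a log2 fold change of -1.01 (adjusted p = 0.00019 in edgeR), and of -0.78 in Aim2-/-. Its 4 WT Tn libraries were at 56.2, 51.6, 81.8 and 78.1 CPM. Keap1, its inhibitor, rose by 0.37 (adjusted p = 0.026 in edgeR) in WT and by 0.31 in Aim2-/-. Keap1 was at 48.1, 49.0, 68.0 and 70.7 CPM in WT Tn and 74.3 to 80.9 CPM in WT Treg, so replicates 1 and 2 of WT Tn were the further from Treg. Bach1, a repressor at the same element, was at 64.9, 80.2, 28.4 and 27.9 CPM in WT Tn and 9.63 to 14.5 CPM in WT Treg (log2 -2.10, adjusted p = 0.00053), and the small MAF partner Mafk fell by 1.65. Replicates 3 and 4 of WT Tn, which were lowest for Sod1, were also lowest for Bach1 and Mafk within that group and above the Treg libraries for both. Blvrb, a biliverdin reductase, fell by 1.62. None of the genes in these 7 lists was called between genotypes in Tn or in Treg or in the interaction by edgeR. An unadjusted p under 0.05 was found in Tn for 1 thioredoxin, 3 glutathione, 1 partner, 1 NADPH supply and 3 NADPH oxidase genes, in Treg for 1 NADPH supply gene, and in the interaction for 1 glutathione and 1 NADPH oxidase gene.

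**Figure D5:**
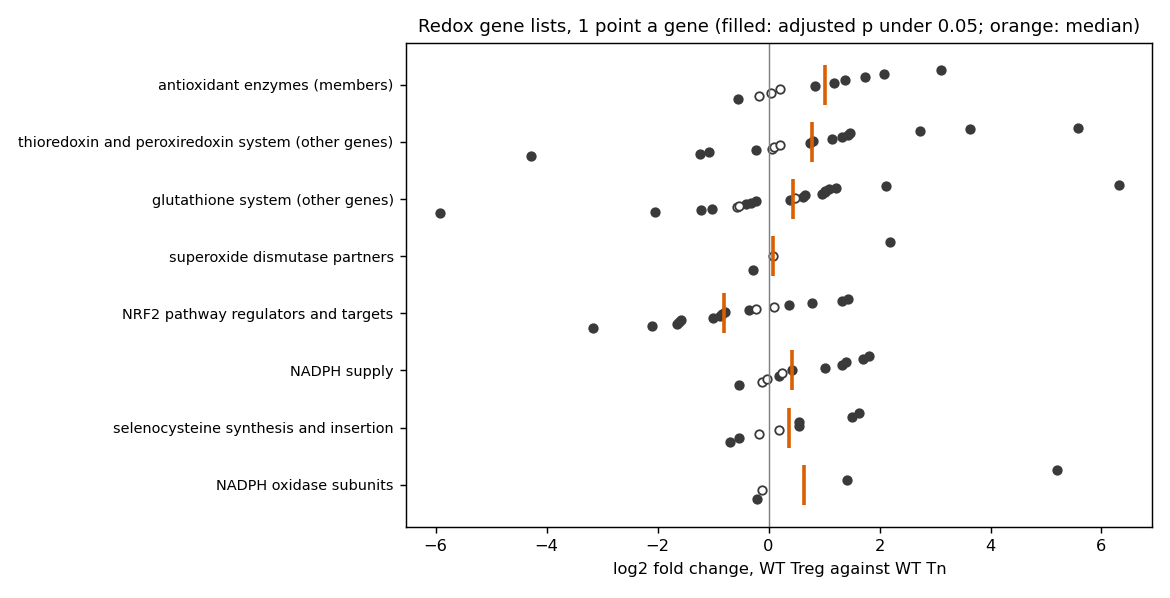
Log2 fold change between WT Treg and WT Tn (horizontal axis) for each tested gene of the members and of the 7 related lists, filled where the adjusted p was under 0.05, with list medians in orange. The medians run from -0.81 for the NRF2 list to 1.01 for the members, and the most distant points are Chac1, Msrb3, Ncf1, Txnip and Ggt5, the first 2 of which are near 0 CPM in Tn.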

How the data were processed

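RNA of 16 libraries was analysed, 4 in each group as the titles give them. The authors made stranded mRNA libraries, aligned single-end reads (STAR, GRCm38), estimated gene counts (RSEM) and deposited expected counts per gene, neither filtered nor normalized. Versions and the strand setting are not given in the sources used here. Estimated counts divide reads shared between similar genes, which affects Sod1, Gpx4 and Prdx1. Here the deposited expected counts were rounded, and genes with 10 counts in at least 4 of the libraries compared were tested with edgeR 4.0.16 in R 4.3.3 (TMM scaling, robust quasi-likelihood test, two-sided, Benjamini-Hochberg adjustment over all genes tested, threshold 0.05). SEs were derived from the F statistic, and intervals cover 95%. CPM used TMM factors over all 16 libraries. At these depths 3 counts equal 0.087 to 0.133 CPM. Ratios were taken on counts plus 0.5 and tested by a two-sided exact permutation test. Lengths came from GENCODE M21, which held 98.7% of the genes. The members and gene lists were chosen with earlier results of these data known. From each list, the 3 genes with the largest WT culture change that passed the test, did not overlap and reached 1 CPM were named, with Nfe2l2, Keap1 and Bach1, and any gene called between genotypes. Of these, 1 gene is not reported here. The fits were tested on simulated data. Alternatives were limma 3.58.1 (voom, as in the study), DESeq2 1.42.0, other filters and scalings, all 16 libraries in 1 fit, a GC and length correction, a replicate block, pairs of replicates and leaving out each library.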

Additional observations from a re-analysis of the deposited data

How the results depend on the processing

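The 7 members called with culture kept their direction and call in both genotypes under every alternative run. Members called between genotypes numbered 0 under each alternative except replicates 3 and 4 alone in Tn, with 1 (Sod1). The sign changes concern values that were not called. With replicates 1 and 2 alone they were in Tn -0.30 (Sod1), -0.039 (Sod2), 0.094 (Cat), -0.11 (Prdx1), 0.038 (Txnrd1) and 0.023 (Gclc), in Treg 0.057 (Cat) and -0.0019 (Prdx1), with culture -0.10 (Sod1, WT) and 0.046 (Gpx4, Aim2-/-), and in the interaction 0.34 (Sod1), -0.022 (Cat), 0.12 (Prdx1), -0.0041 (Txnrd1) and -0.11 (Gclc). With replicates 3 and 4 alone they were 0.046 (Gclc, Treg), -0.035 (Gpx4, WT culture), and in the interaction -0.025 (Sod2), 0.075 (Gpx1) and 0.058 (Gclm). With the GC and length correction they were -0.0057 (Gpx1, Tn), 0.20 (Gpx4, Aim2-/- culture), and in the interaction 0.0011 (Sod1), -0.050 (Sod2), 0.11 (Gpx1) and 0.0094 (Txn1), and with the replicate block added to it -0.0021 (Gpx1, Tn), 0.21 (Gpx4), -0.0499 (Sod2), 0.10 (Gpx1) and 0.010 (Txn1). Without a filter Sod2 in Tn was -0.0024. Without replicate 3 of Aim2-/- Tn, Gclc passed the test in Aim2-/- culture, at -0.24 (adjusted p = 0.023 in edgeR).

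Genes called in Tn (31) numbered 128 by DESeq2, 47 without a filter, 18 with 10 counts in every library, 64 with all 16 libraries in 1 fit, and 15 and 516 in the pairs of replicates. In Treg (29) they numbered 52 by DESeq2, 17 with the strict filter, and 15 and 4 in the pairs, and in the interaction (3) 10 by DESeq2 and 0 with the strict filter. The Sod2/Sod1 difference was 0.27 and -0.54 in Tn and 1.01 and 0.13 with WT culture in replicates 1 and 2 and in 3 and 4, and Txnrd1/Txn1 was -0.041 and -0.57 in Tn and -0.89 and -1.16 with WT culture. The cause of these changes was not tested. Per kb of principal transcript, a length chosen after seeing the data, WT Tn and WT Treg levels were 312 and 367 (Sod1), 6.35 and 11.6 (Sod2), 91.7 and 243 (Gpx1), 95.4 and 101 (Gpx4), 59.6 and 202 (Prdx1), 19.5 and 84.6 CPM per kb (Txnrd1), with 16.5 for Gclc in Tn and 6.83 for Gclm in Treg.

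Leaving out 1 library at a time gave 17 to 28 genes called in Tn, 10 to 17 in Treg and 2 to 5 in the interaction. The ranges that crossed 0 were in Tn -0.065 to 0.29 (Sod1), -0.012 to 0.040 (Sod2), -0.20 to 0.010 (Cat) and -0.099 to 0.017 (Gclc), in Treg -0.057 to 0.018 (Cat), -0.037 to 0.050 (Prdx1), -0.085 to 0.029 (Gclc) and -0.011 to 0.074 (Gclm), and in the interaction -0.24 to 0.13 (Sod1), -0.0065 to 0.058 (Sod2), -0.011 to 0.19 (Cat), -0.12 to 0.062 (Gpx1), -0.046 to 0.083 (Gclc) and -0.14 to 0.014 (Gclm). For the ratios between genotypes they were -0.33 to 0.056 (Sod2/Sod1, Tn), and in Treg -0.047 to 0.0096 (Sod2/Sod1), -0.13 to 0.0090 (Gpx4/Gpx1) and -0.14 to 0.011 (Gclc/Gclm), and Sod2/Sod1 with WT culture ranged from 0.38 to 0.76.

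Same-numbered libraries of WT and Aim2-/- correlated in their deviations at 0.29, 0.05, 0.43 and 0.06 in Tn and 0.60, 0.42, -0.01 and 0.54 in Treg. The mean over differently numbered libraries was -0.07 in Tn and -0.13 in Treg. The best match had the same number for 1 of the 4 Aim2-/- and 2 of the 4 WT libraries in Tn, and for 3 and 2 in Treg. No source used here says that the numbers name pairs, so the main test did not use them. The replicate block gave 29 genes called in Tn and 41 in Treg, and 0 members in both, with 7 members called with culture in each genotype. With the block, Gpx1 and Txn1 in Treg had unadjusted p of 0.047 and 0.042 in edgeR (adjusted p = 0.59 for both). An unadjusted p under 0.05 was then found for 1104 of 13221 genes in Treg, against 305 without the block. In Tn only Gpx4 of the members was under 0.05 (unadjusted p = 0.023 in edgeR), beside 1726 of 13441 genes, against 1389 without the block.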

Other observations

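The NADPH oxidase subunits, which make superoxide, were higher in Aim2-/- Tn than in WT Tn in summed level, although none was called. The 8 genes of the list summed to 149, 144, 164 and 160 CPM in WT Tn and to 210, 167, 260 and 194 CPM in Aim2-/- Tn, without overlap, and to 232 to 249 CPM in WT Treg and 227 to 279 CPM in Aim2-/- Treg. Ncf4, the p40phox subunit, was at 35.7 to 46.4 CPM in WT Tn and 51.4 to 67.5 CPM in Aim2-/- Tn (log2 0.54, unadjusted p = 0.00069 and adjusted p = 0.16 in edgeR). The sums are mostly Cyba, with a mean of 110 CPM in WT Tn and 143 CPM in Aim2-/- Tn. Myeloid and B cells also express these subunits. The study describes an immunomagnetic selection of CD44low CD62Lhigh naive CD4+ T cells, and the share of other cells left after it was not measured here. B cell markers summed to 423 to 546 CPM in WT Tn and 475 to 575 CPM in Aim2-/- Tn, almost all of it Ighm, and myeloid markers to 14.6 to 22.9 and 17.0 to 21.4 CPM. Erythroid markers (1.58 to 4.35 CPM in WT Tn and 5.81 to 8.30 CPM in Aim2-/- Tn) were higher in Aim2-/- Tn without overlap. So was Fcgr3 of the myeloid list (0.76 to 1.40 and 2.02 to 3.23 CPM), but other genes of that list did not all follow it. Means in WT Tn and Aim2-/- Tn were 8.71 and 7.12 CPM for Cd68, its top gene. They were 3.70 and 3.75 CPM for Itgam, and 1.49 and 1.97 CPM for Csf1r. The part of such cells in the difference was not tested.

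Nnt, the mitochondrial transhydrogenase that makes NADPH, was at 14.5, 10.99, 13.3 and 12.3 CPM in WT Tn and 5.43, 6.65, 9.50 and 9.45 CPM in Aim2-/- Tn (log2 -0.72, unadjusted p = 0.0028 and adjusted p = 0.29 in edgeR). In Treg it was at 11.8 to 18.5 CPM in WT and 7.35 to 11.9 CPM in Aim2-/- (log2 -0.65, adjusted p = 0.999). Ncf4 and Nnt were chosen after their values were seen. No source used here says that WT and Aim2-/- mice were littermates. Differences between the mouse lines outside Aim2 and the loss of Aim2 therefore cannot be told apart for these genes. Fcgr3, of the myeloid list, was the only gene of all lists called between genotypes. It was at 0.07 to 0.17 CPM in WT Treg and 0.93 to 2.22 CPM in Aim2-/- Treg. In both Treg groups Lyz2, Tyrobp and Csf3r of that list were at 0. Itgam had a mean of 0.66 CPM in WT Treg and 0.67 CPM in Aim2-/- Treg. The myeloid sums overlapped in Treg, at 2.45 to 3.17 CPM in WT and 3.09 to 5.36 CPM in Aim2-/-. The cause of the Fcgr3 difference was not tested.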
